A study of Mus musculus with 6 samples.

Results

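The nuclear genes named as subunits of the mitochondrial respiratory chain and ATP synthase were examined in Ba/F3, a mouse pro-B line whose growth depends on interleukin-3 (IL-3). Members were the rows of the deposited expression table whose gene symbol begins with Nduf, Uqcr, Cox4 to Cox8, Atp5 or Sdha to Sdhd. Rows with several gene identifiers and rows on chromosome 17 from 30 Mb on were left out, and 1 row was kept per symbol. This gave 76 members of 12615 rows, all protein coding and all at 1 FPKM or more. FPKM are fragments scaled to transcript length and to the mapped fragments of a library, so that levels of different genes can be set side by side. Of 86 symbols that begin this way, 4 were left out for several identifiers and 6 for their place on chromosome 17. By their known function 66 members are structural subunits and 9 are assembly factors, and Atp5s was counted as neither.

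The series compared Ba/F3 cells transduced with human calreticulin (hCALR) with Ba/F3 cells transduced with its type 1 mutant (hCALR-del52), which is found in myeloproliferative neoplasms. Both groups carried the pMSCV-IRES-GFP vector and both grew with IL-3 at 1 ng/ml. Each had 3 replicates, and the labels do not say whether these were separate cultures. The table holds 1 value per group, so that no value below has an SD or a test over replicates, and the depth is unknown. Construct and transduced line go together, so that an effect of the mutation and a difference between the lines cannot be told apart. In what follows, the first value of a pair is always hCALR and the second hCALR-del52. The blood cell genes Ptprc, at 83.1 and 60.1 FPKM, Il3ra, at 40.2 and 36.9 FPKM, and Csf2rb, at 438 and 263 FPKM, were present. Of 5 markers of other tissues, Col1a1, Alb, Myh6 and Actc1 were not among the genes compared, while Ckm, which encodes muscle creatine kinase, was at 50.2 and 59.5 FPKM.

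Oxidative phosphorylation couples the oxidation of NADH and succinate to the synthesis of ATP in the inner mitochondrial membrane. Complexes I and II pass electrons to ubiquinone, complex III passes them on to cytochrome c and complex IV to oxygen. Complexes I, III and IV pump protons, and complex V, the ATP synthase, uses their return. Most subunits are encoded in the nucleus and imported, while a few hydrophobic ones are encoded by mitochondrial DNA. Nuclear subunit genes are widely known as targets of the transcription factors NRF1, GABP (an ETS factor) and YY1.

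Subunit genes were slightly higher in hCALR-del52 cells nearly throughout, but none passed the authors' test. The plain ratio of both FPKM values was above 1 in 67 of 76 members, against 48.0% of 9667 genes compared. Those are all named genes on rows of 1 identifier that reach 1 FPKM in either group. Among the 66 structural subunits it was above 1 in 63, and the exceptions were Ndufa2, Cox7a1 and Ndufa13, of which Ndufa13 turned above it when values were centred on all genes or taken as shares of summed FPKM. The median log2 ratio, log2((FPKM hCALR-del52 + 1)/(FPKM hCALR + 1)), was 0.16 over the members and 0.18 over the subunits, against -0.01 over all genes compared. The median fold was 1.12 over the members and 1.13 over the subunits, and the folds of all members lay between 0.876 and 1.32. A fold of at least 1.1 was reached by 63.2% of members and 23.6% of all genes compared, a fold of at least 1.2 by 13.2% and 11.5%. Small upward folds were thus more frequent among the members than among the genes compared, and upward folds of 1.2 or more were about as frequent. Downward folds were not counted in these shares: the lower quartile of the fold was 1.06 over the members and 0.900 over the genes compared. The 2 sets also differed in level, with a median of 108 and 116 FPKM for the members and 18.4 and 18.0 FPKM for the genes compared.

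By the authors' q under 0.05 in the deposited table, 0 of 76 members were called, while 1.84% of all rows were, 0.872% as higher and 0.967% as lower, and 1.82% of the genes compared. An unadjusted p under 0.05 was given to 0 members, to 4.90% of rows and to 4.46% of the genes compared. With q under 0.01 (1.26% of rows), with Benjamini-Hochberg adjustment over all rows (1.36%) or with a fold of 2 added (1.66%), the members called were again 0. Each of these rules is stricter than the first, so that 0 members followed from the first count and adds nothing to it. The smallest p among the members in the authors' deposited table was 0.156, for Cox7a2, with q = 0.750. A shift of this size in a single gene therefore did not stand out from the spread that the authors' Cuffdiff fit assigned to it. Genes of 1 pathway vary together and share the same libraries, so that their common direction is 1 description of these group values, not 76 separate findings.

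Summed over the members, FPKM came to 14334 in hCALR and 16162 in hCALR-del52 cells, a fold of 1.13. The members held 1.62% and 1.85% of the summed FPKM of all rows. Without the rows of the mitochondrial chromosome these shares were 1.76% and 1.97%. By complex, the sums were 2746 and 3023 FPKM for complex I, 730 and 795 FPKM for complex II and 1903 and 2051 FPKM for complex III. Complex IV came to 4384 and 5035 FPKM and complex V to 4567 and 5255 FPKM, each a fold of 1.15, the highest fold of the sums. Such sums follow the genes with the highest levels. In complex IV these were Cox7b and Cox8a, at 1373 and 1104 FPKM in hCALR cells. In complex III, where the sum had a fold of 1.08, Uqcrh was at 732 FPKM in hCALR cells with a fold of 1.01. In bulk RNA a change in the mix of cells and a change of RNA per cell cannot be told apart.

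The promoters were searched for short motifs, the cores bound by NRF1, YY1 and ETS factors. RefSeq (build GRCm38.p6) gave windows of 300 bases, 250 before and 50 from the start, for 63 members in 67 windows. Of the members, 17 held the NRF1 core on either strand, 5 the YY1 core and 5 the ETS core CCGGAAGT, and 2 members held 2 of these motifs. At least 1 of the motifs was thus found in 25 of the 63 members. The NRF1 core was in 26.9% of member windows, 11.0% of windows of the other genes compared and 4.60% of all promoter windows. The YY1 core was in 7.46%, 2.29% and 0.852% of them. The ETS core was in 7.46% of member windows, 9.07% of the other genes compared and 3.89% of all windows. Median GC content was 58.7% in member windows, 60.7% in those of the other genes compared and 52.7% in all. A match is a description of the letters and does not show that a factor binds.

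**Figure D1:**
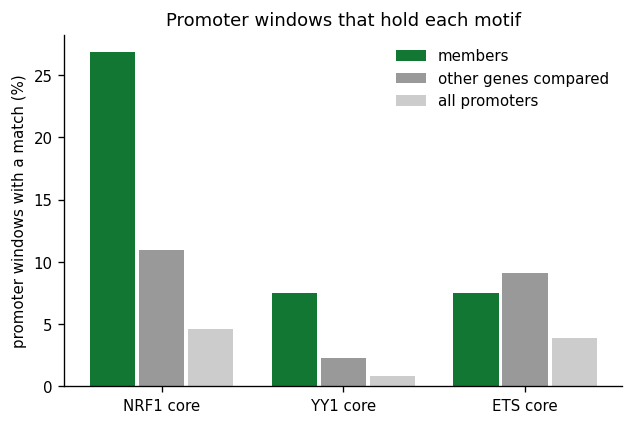
Bars give the percentage of promoter windows of 300 bases that hold the NRF1, YY1 or ETS core, for members, for the other genes compared and for all promoters. Members stand above both backgrounds for the NRF1 core (26.9% against 11.0% and 4.60%) and the YY1 core (7.46% against 2.29% and 0.852%), but not for the ETS core (7.46% against 9.07% of other genes compared).

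For each complex, the member shown has an NRF1 core, the most kinds of motif and then the highest ratio. Capitals mark the matched cores, the strand is that of the gene, and positions count from 0 at the start base:
Ndufs6 (complex I, chr13:73328433-73328732, minus strand): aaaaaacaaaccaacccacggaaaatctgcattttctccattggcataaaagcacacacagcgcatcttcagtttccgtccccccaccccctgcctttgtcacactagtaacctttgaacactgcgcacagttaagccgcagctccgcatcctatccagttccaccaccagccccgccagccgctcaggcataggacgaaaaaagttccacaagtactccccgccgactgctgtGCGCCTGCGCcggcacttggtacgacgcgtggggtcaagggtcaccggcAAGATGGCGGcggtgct
Sdhd (complex II, chr9:50603800-50604099, minus strand): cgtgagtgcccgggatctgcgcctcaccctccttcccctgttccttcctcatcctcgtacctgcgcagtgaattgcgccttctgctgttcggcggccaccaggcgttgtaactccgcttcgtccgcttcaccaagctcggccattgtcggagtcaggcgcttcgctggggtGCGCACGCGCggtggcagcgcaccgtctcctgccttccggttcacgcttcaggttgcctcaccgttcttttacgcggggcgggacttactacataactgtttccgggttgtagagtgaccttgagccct
Uqcrc1 (complex III, chr9:108936398-108936697, plus strand): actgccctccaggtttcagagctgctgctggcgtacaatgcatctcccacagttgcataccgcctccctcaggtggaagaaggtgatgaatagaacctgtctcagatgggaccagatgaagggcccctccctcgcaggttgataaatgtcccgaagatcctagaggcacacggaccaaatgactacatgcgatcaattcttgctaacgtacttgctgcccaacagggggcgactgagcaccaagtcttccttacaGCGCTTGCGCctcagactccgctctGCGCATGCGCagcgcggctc
Cox6a1 (complex IV, chr5:115348909-115349208, minus strand): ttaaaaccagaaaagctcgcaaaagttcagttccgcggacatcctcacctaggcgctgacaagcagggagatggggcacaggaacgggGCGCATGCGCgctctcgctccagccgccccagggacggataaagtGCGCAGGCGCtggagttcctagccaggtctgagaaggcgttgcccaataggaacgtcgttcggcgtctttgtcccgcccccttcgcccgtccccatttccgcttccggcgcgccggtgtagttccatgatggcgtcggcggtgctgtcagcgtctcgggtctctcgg
Atp5h (complex V, chr11:115419870-115420169, minus strand): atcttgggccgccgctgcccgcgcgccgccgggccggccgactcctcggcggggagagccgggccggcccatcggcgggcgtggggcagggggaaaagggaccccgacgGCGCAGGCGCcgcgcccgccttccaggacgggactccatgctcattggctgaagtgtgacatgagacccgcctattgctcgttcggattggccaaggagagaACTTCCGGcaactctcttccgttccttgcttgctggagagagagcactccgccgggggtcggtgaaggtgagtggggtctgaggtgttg
In the Ndufs6 promoter the NRF1 core begins at position -16 and the YY1 core, the second run of capitals, at 33. In Uqcrc1 both runs are NRF1 cores, at 5 and 30, and likewise in Cox6a1, at -162 and -117. The Sdhd match begins at -79. Atp5h has an NRF1 core at -141 and an ETS core at -39. The matches of Sdhd and Atp5h and the one of Cox6a1 at -117 read on the strand opposite to the gene, the one of Cox6a1 at -162 and the one of Uqcrc1 at 30 on both strands, and the others on that of the gene. None of the printed matches overlap. The 17 members with an NRF1 core had a median log2 ratio of 0.16 and the 46 without it 0.17, which are close to each other. Members with a YY1 core were at 0.16 against 0.17 without, and members with an ETS core at 0.05 against 0.17.

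Complex I, the NADH dehydrogenase, was represented by 29 subunits and 7 assembly factors. Its subunits had a median log2 ratio of 0.14, with 27 of 29 above 0. Core subunits hold the flavin and the iron-sulfur clusters and have bacterial counterparts. Those among the members were above 0 in 6 of 6. The core subunit Ndufv2, left out for its place on chromosome 17, was below equality, with a log2 ratio of -0.08. Ndufs8, which carries iron-sulfur clusters next to the membrane arm, was at 54.2 and 65.7 FPKM, a fold of 1.21. Ndufv1, which binds NADH and the flavin, was at 120 and 136 FPKM. Ndufs1, the largest subunit, was at 42.7 and 48.9 FPKM. Smaller differences were seen in Ndufs7, at 91.8 and 97.2 FPKM, and Ndufs3, at 54.9 and 57.0 FPKM. None of these had a p under 0.287 in the authors' deposited table.

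Accessory subunits of complex I, which surround and stabilise the core, covered a wider range. Ndufc1 had the highest log2 ratio of all members, 0.40, from 54.3 and 71.7 FPKM, with p = 0.336 in the authors' deposited table. Ndufb6 followed with 48.5 and 62.5 FPKM and Ndufa10 with 44.5 and 55.8 FPKM. At the other end Ndufa2, at 177 and 173 FPKM, and Ndufa13, also known as GRIM-19, at 47.9 FPKM in both groups, were the only subunits of the complex below equality. Ndufa6, at 223 and 227 FPKM, and Ndufa3, at 213 and 245 FPKM, were the complex I members with the highest levels. The other 15 accessory subunits were all above equality, with log2 ratios from 0.05 to 0.23 and levels from 34.2 to 181 FPKM. The lowest accessory subunit by level was Ndufb4, at 13.5 and 15.4 FPKM, within a complex whose subunits had a median of 78.8 and 91.6 FPKM.

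**Figure D2:**
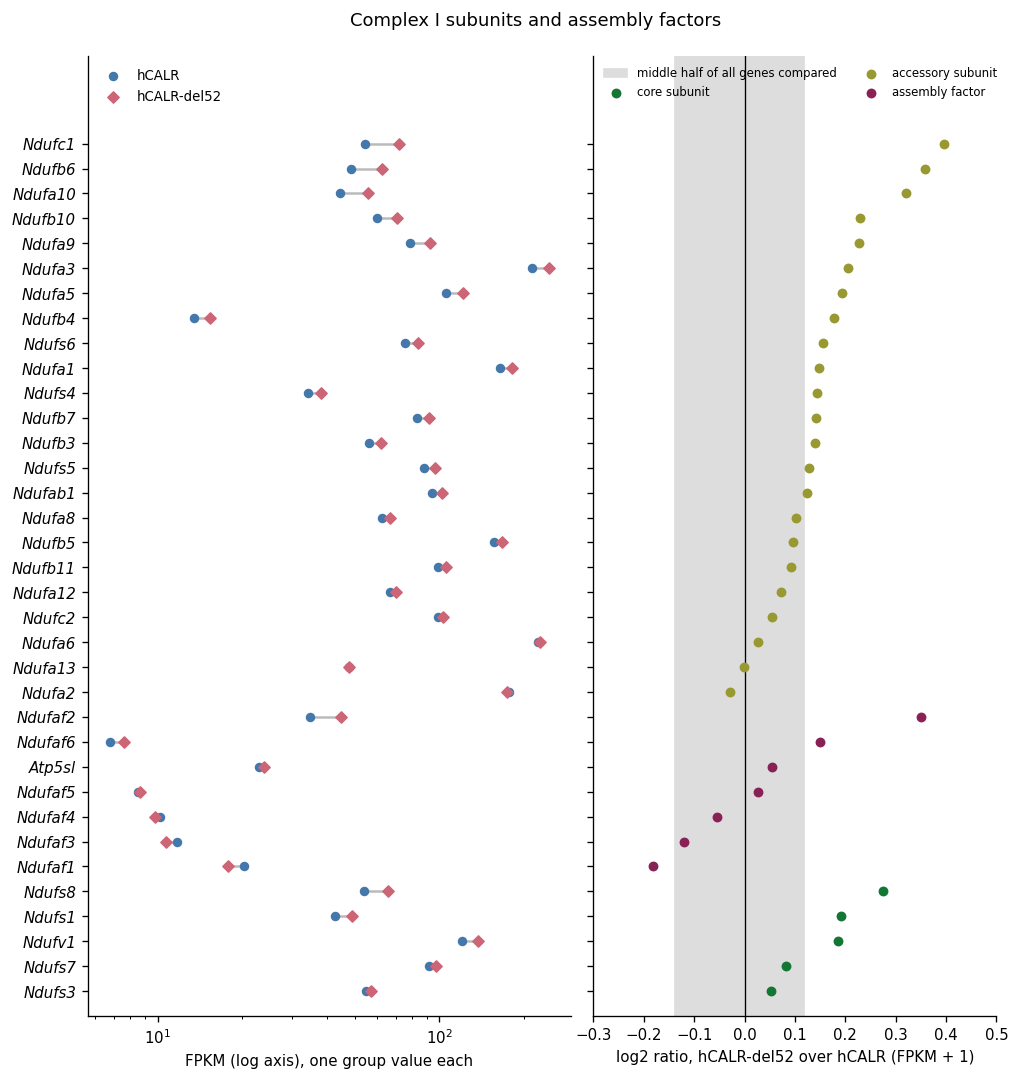
The left panel gives the group FPKM of 35 complex I members on a log axis, hCALR as circles and hCALR-del52 as diamonds. The right panel gives the log2 ratio, coloured by class, over a grey band that spans the interquartile range of all genes compared. The 5 core subunits drawn lie between 0.05 and 0.27, the 23 accessory subunits between -0.03 and 0.40, and the assembly factors between -0.18 and 0.35.

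Complex II, succinate dehydrogenase, belongs to both the citrate cycle and the respiratory chain. All 4 subunits were above equality, with a median log2 ratio of 0.16, against 0.11 when the assembly factors Sdhaf1 and Sdhaf2 were counted with them. The iron-sulfur subunit Sdhb was at 64.9 and 76.4 FPKM, the membrane anchors Sdhc at 163 and 186 FPKM and Sdhd at 124 and 137 FPKM, and the flavoprotein Sdha at 351 and 370 FPKM. Sdhb was the lowest by level in both groups and had the highest fold, 1.18, while Sdha was the highest by level and had the lowest fold, 1.05.

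In complex III, the cytochrome bc1 complex, 8 of 8 subunits were above equality, with a median log2 ratio of 0.19. Uqcrfs1, the Rieske iron-sulfur protein and the 1 catalytic subunit among the members, was at 78.5 and 93.3 FPKM. The large structural subunits Uqcrc1, at 112 and 131 FPKM, and Uqcrc2, at 173 and 208 FPKM, and the small subunit Uqcr10, at 218 and 257 FPKM, had log2 ratios of 0.22, 0.27 and 0.24. Uqcrq was at 320 and 345 FPKM and Uqcrb at 76.2 and 84.9 FPKM. The hinge protein gene Uqcrh, with the highest level of the complex, 732 and 738 FPKM, and Uqcr11, at 193 and 194 FPKM, had the smallest log2 ratios of the complex, 0.01 and 0.004. Cyc1, the cytochrome c1 gene, falls outside the symbol rule and was at 82.1 and 93.9 FPKM.

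Complex IV, cytochrome c oxidase, has its catalytic subunits encoded by mitochondrial DNA, so that the members are its nuclear accessory subunits. Their median log2 ratio of 0.20 was the highest of the 5 complexes, and 10 of 11 were above 0. Cox7a2, the widely expressed form of subunit 7a, was at 123 and 159 FPKM, a fold of 1.29. Cox7c was at 80.2 and 100.03 FPKM, Cox6c at 284 and 345 FPKM and Cox6a1, the widely expressed form of subunit 6a, at 295 and 356 FPKM. Ndufa4, named for complex I but counted here with complex IV, where it is now placed, was at 345 and 401 FPKM. Cox5a was at 178 and 205 FPKM, Cox5b at 198 and 225 FPKM and Cox6b1 at 400 and 456 FPKM. Cox7b and Cox8a were the members with the highest levels of all, at 1373 and 1553 FPKM and at 1104 and 1232 FPKM, with folds of 1.13 and 1.12.

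The muscle form of subunit 7a, Cox7a1, was at 3.19 and 3.15 FPKM, the lowest level of a subunit in either group. It was the 1 complex IV member below equality. Its widely expressed partner Cox7a2 was the member with the smallest p, so that the pair differed both in level and in ratio, without a test of that difference. Cox4i1, Cox4i2, Cox6a2, Cox6b2, Cox8b, Cox8c and Ndufa4l2, other forms in such pairs, had no row under their symbols and so were not analysed here.

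Complex V was above equality in 14 of 14 subunits, with a median log2 ratio of 0.18. In its catalytic head, F1, Atp5b, the beta subunit that forms ATP, was at 1026 and 1228 FPKM, a log2 ratio of 0.26, and Atp5a1, the alpha subunit, at 601 and 661 FPKM. The central stalk genes were at 215 and 244 FPKM for Atp5c1 (gamma), 149 and 177 FPKM for Atp5d (delta) and 410 and 461 FPKM for Atp5e (epsilon). Subunit c, the proton-carrying ring, is made as the same mature protein from several genes. Of these Atp5g3 was at 290 and 342 FPKM, Atp5g2 at 228 and 250 FPKM and Atp5g1 at 96.6 and 103 FPKM, so that the order of levels was the same in both groups. In the peripheral stalk, Atp5f1 was at 112 and 134 FPKM, Atp5h at 232 and 261 FPKM and Atp5j at 291 and 326 FPKM. Among the small membrane subunits, Atp5k was at 633 and 756 FPKM and Atp5j2 at 174 and 202 FPKM, while Atp5l, at 110.2 and 110.4 FPKM, had the smallest log2 ratio of the complex, 0.003.

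**Figure D3:**
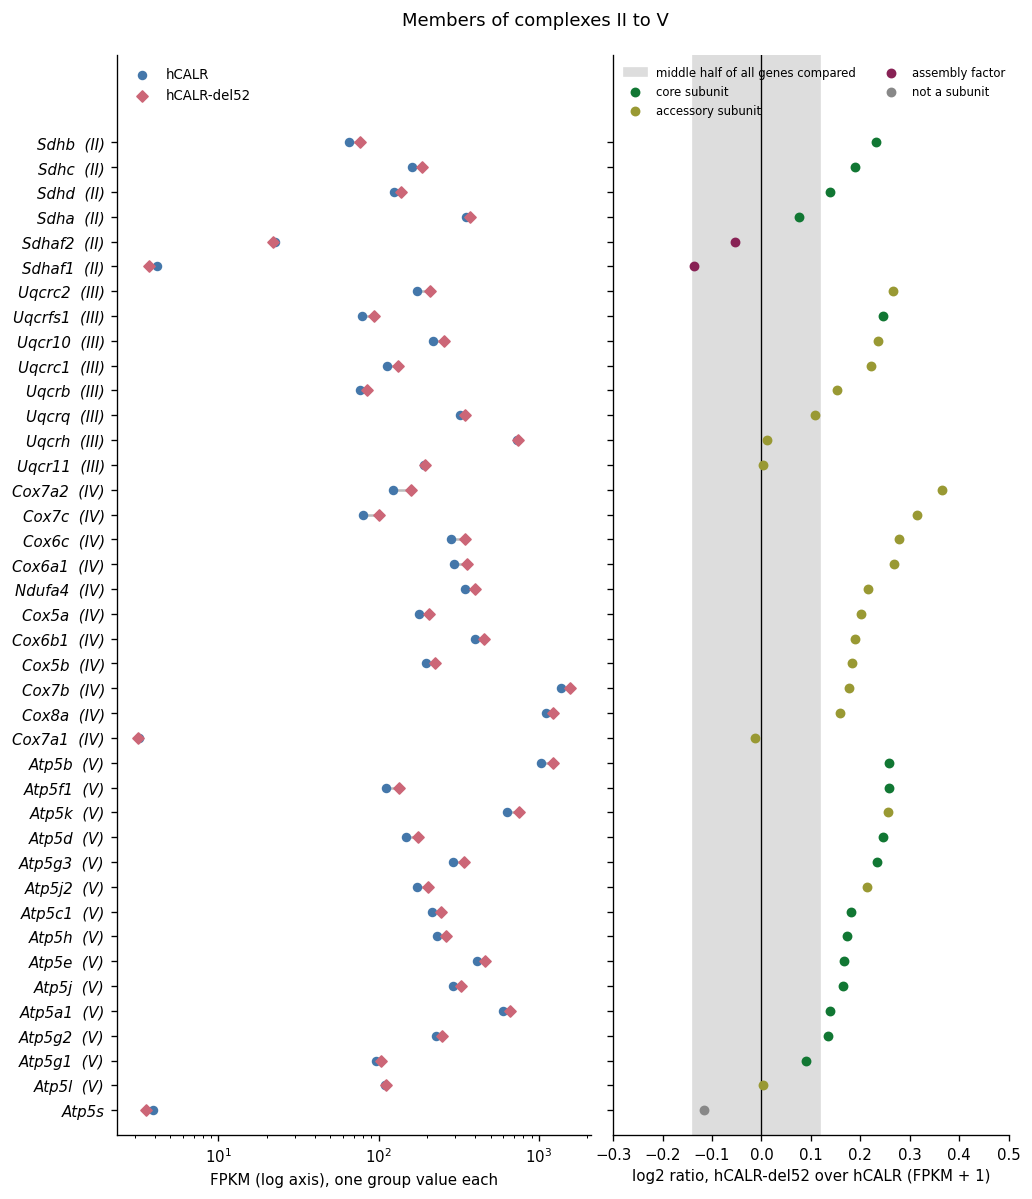
Members of complexes II to V, and Atp5s, are drawn as group FPKM on a log axis (left) and as log2 ratio (right), sorted by ratio within each complex. The grey band spans the interquartile range of all genes compared, and 30 of the 37 subunits lie to its right. Those closest to 0 are Uqcrh, Uqcr11, Atp5l and Cox7a1.

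Assembly factors were divided in direction. Of the 9 taken in by the symbol rule, 4 were above equality and 5 below, with a median log2 ratio of -0.05. Ndufaf2, which binds a late form of complex I, was at 34.8 and 44.6 FPKM, and Ndufaf6 at 6.76 and 7.61 FPKM. Atp5sl, renamed Dmac2 for its part in complex I assembly, was at 22.9 and 23.8 FPKM, and Ndufaf5, known in humans to hydroxylate the subunit NDUFS7, at 8.51 and 8.69 FPKM. Below equality were Ndufaf1, at 20.3 and 17.8 FPKM, Ndufaf3, at 11.7 and 10.7 FPKM, Ndufaf4, at 10.2 and 9.78 FPKM, Sdhaf2, which helps to attach the flavin to Sdha, at 22.7 and 21.8 FPKM, and Sdhaf1, at 4.15 and 3.69 FPKM. Atp5s was at 3.90 and 3.52 FPKM. These genes also had lower levels than the subunits, with a median of 11.7 and 10.7 FPKM against 124 and 141 FPKM. A list of 36 further assembly factors had 29 measured genes, with 20 above 0, a median log2 ratio of 0.07 and 0 called. Among them Tmem70, an ATP synthase assembly factor, was at 23.7 and 29.8 FPKM and Nubpl, which delivers iron-sulfur clusters to complex I, at 12.2 and 15.7 FPKM. Lyrm7, a complex III assembly factor, was at 0.863 and 2.31 FPKM, with p = 0.0531 and q = 0.415 in the authors' deposited table. Coa6 and Ttc19 were lowest in ratio, at 20.6 and 18.4 FPKM and at 11.7 and 10.5 FPKM.

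Level went with ratio across the table, so the members were also set beside genes of like level. Of the 61 members with a mean of 50 FPKM or more, all of them subunits, 60 were above 0, with a median log2 ratio of 0.18. The 1859 other genes compared at such levels had a median of 0.02, and 54.1% were above 0. In the range from 500 FPKM on, 6 of 6 members were above 0 with a median of 0.17, and 142 other genes had a median of 0.06 with 66.9% above 0. Under 20 FPKM, 3 of 9 members were above 0, with a median of -0.05, and 6 of these were assembly factors. The part of level in the difference between subunits and assembly factors was not tested.

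**Figure D4:**
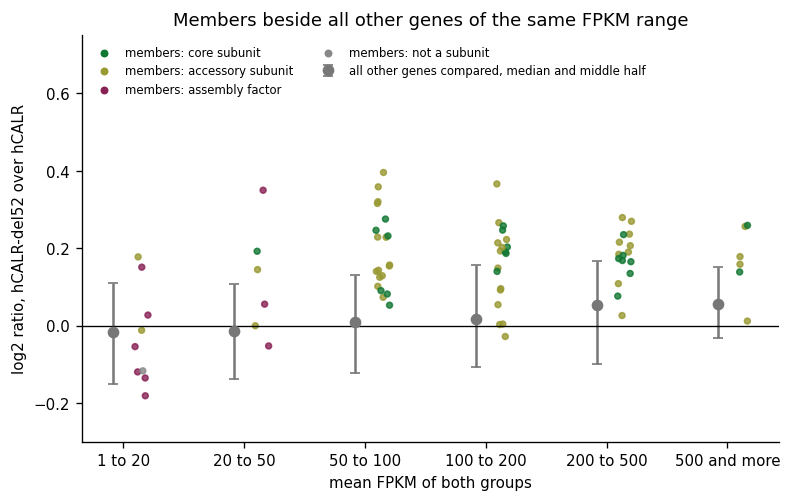
Log2 ratios are plotted against ranges of mean FPKM. Grey points and bars are the median and interquartile range of all other genes compared, and coloured points are members by class. From 50 FPKM on, 60 of 61 members lie above 0, while the medians of the other genes run from 0.01 to 0.06.

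The mitochondrially encoded subunits went the other way in the rows of the table that hold them, with no call. The row of mt-Cytb, the catalytic cytochrome b of complex III, was at 2845 and 2382 FPKM, with p = 0.563 in the authors' deposited table. A row that joins mt-Nd1 and mt-Nd2, both complex I subunits, was at 24313 and 18798 FPKM, with p = 0.499 in the authors' deposited table. The other mitochondrially encoded subunits had no row on the mitochondrial chromosome and so were not analysed here. Of the 3 remaining rows of the mitochondrial chromosome, all of transfer RNA genes, each was lower in hCALR-del52 cells as well, by unlike amounts. The row of mt-Tq, with the same locus as the row of mt-Nd1 and mt-Nd2, was at 1635 and 530 FPKM. It had p = 0.02775 and q = 0.273 in the authors' deposited table. The row of mt-Tp was at 33227 and 30626 FPKM, and a row that joins mt-Ta, mt-Tn, mt-Tc and mt-Ty at 5591 and 4690 FPKM.

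Lists of related genes were set beside the subunits, and 0 genes were called in any of them. Of 16 citrate cycle and pyruvate dehydrogenase genes, 15 were above 0, with a median log2 ratio of 0.13. Pdha1, the E1 alpha subunit of pyruvate dehydrogenase, was at 94.2 and 127 FPKM and Dld, the E3 component it shares with other complexes, at 53.3 and 68.2 FPKM, while the succinyl-CoA ligase gene Suclg2 was at 42.4 and 40.2 FPKM and its partner Suclg1 at 81.1 and 81.9 FPKM. Of 14 other subunits and carriers, 11 were above 0, with a median of 0.20. They included Atpif1, an inhibitor of ATP synthase run in reverse, at 164 and 205 FPKM, the adenine nucleotide carrier Slc25a5 at 232 and 286 FPKM, and Cycs, which encodes cytochrome c, at 14.7 and 16.0 FPKM. The uncoupling protein gene Ucp2 was at 182 and 170 FPKM and Dhodh, of pyrimidine synthesis, at 22.7 and 21.6 FPKM. Of 12 genes of coenzyme Q synthesis, 8 were above 0, with a median of 0.14. Coq4 was at 16.1 and 22.9 FPKM and Adck3 at 27.6 and 35.4 FPKM, while Coq10b was at 3.87 and 2.72 FPKM and Coq9 at 56.5 and 52.4 FPKM.

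Genes that control mitochondrial gene expression had list medians near 0, with single genes on either side. Of 9 regulators of mitochondrial biogenesis, 5 were above 0, with a median log2 ratio of 0.02. Ppargc1b, a coactivator, was at 2.88 and 3.58 FPKM, Nrf1 at 21.5 and 23.9 FPKM, Gabpa at 33.8 and 36.1 FPKM and Yy1 at 57.8 and 57.6 FPKM. The deacetylase gene Sirt3 was at 10.8 and 12.2 FPKM, while Gabpb1 was at 17.1 and 15.6 FPKM and Pprc1 at 49.5 and 46.8 FPKM. Of 14 genes of mitochondrial DNA maintenance and transcription, 6 were above 0, with a median of -0.02. Tfam, which packages mitochondrial DNA, was at 66.6 and 67.1 FPKM, and the mitochondrial RNA polymerase gene Polrmt at 18.8 and 18.0 FPKM. Mgme1, with a log2 ratio of 0.31, and Peo1, which encodes the Twinkle helicase, at 13.7 and 16.5 FPKM, had the highest ratios, and Top1mt, at 8.45 and 7.23 FPKM, and Mterfd1, at 39.1 and 34.3 FPKM, the lowest. The row of Gabpa has the same locus as that of the member Atp5j, and the row of Mterfd1 the same as that of Uqcrb. Reads may be harder to assign to single genes there.

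The 64 mitochondrial ribosomal protein genes off distal chromosome 17 had a median log2 ratio of 0.11, with 48 above 0, and the 89 cytosolic ribosomal protein genes 0.05, with 65 above 0. The glycolysis list of 16 genes had a median of -0.28, with 1 above 0. It takes in the glucose transporter gene Slc2a1 and the pyruvate dehydrogenase kinase gene Pdk1, with log2 ratios of -0.51 and -0.34. Pfkl, which encodes a phosphofructokinase, was at 137 and 80.8 FPKM, with p = 0.0234 and q = 0.241 in the authors' deposited table, so that it was not called. The hexokinase gene Hk2 was at 50.2 and 34.2 FPKM. Gapdh, the gene above 0, was at 1009 and 1055 FPKM and Pgk1 at 296 and 290.4 FPKM. The difference between these lists and the members was not tested, since the table has 1 value per group.

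**Figure D5:**
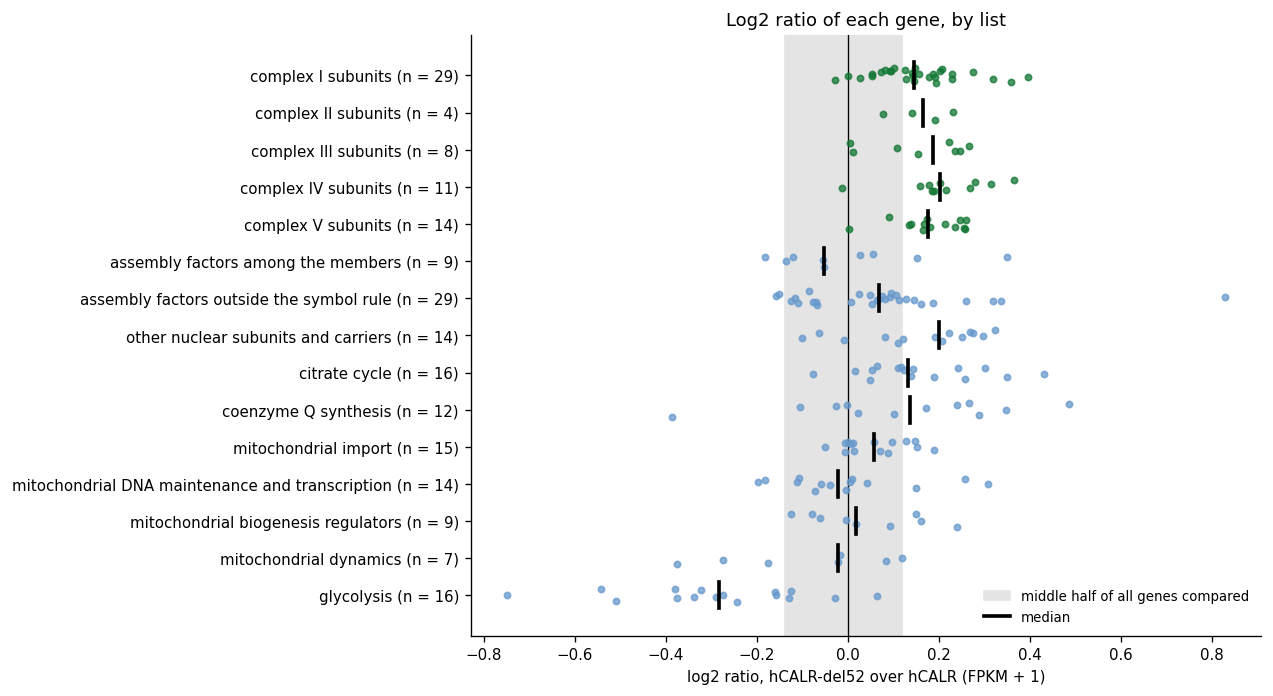
Each point is the log2 ratio of 1 gene, black bars are list medians, and the grey band is the interquartile range of all genes compared. The 5 complexes have medians from 0.14 to 0.20, assembly factors among the members -0.05 and the glycolysis list -0.28.

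Members were spread over 19 chromosomes, with at most 8 on any. On chromosome 7, which held the most, 6 of 8 members were above 0, on chromosome 2, 6 of 7, and on chromosome 13, 7 of 7. The 6 rows left out on distal chromosome 17 differed: 1 was above 0, with a median log2 ratio of -0.16. Among them Ndufv2, a core subunit with an iron-sulfur cluster, was at 124 and 117 FPKM, Ndufv3 at 114 and 104 FPKM, Ndufa11 at 12.6 and 11.0 FPKM, Ndufaf7 at 9.93 and 7.49 FPKM and Cox7a2l, which links complexes III and IV, at 260 and 227 FPKM, while Ndufa7 was at 139 and 149 FPKM. The 4 rows left out for several identifiers were above 0 in every case: Ndufb9, at 157 and 190 FPKM, Atp5o, which encodes the stalk protein OSCP, at 227 and 267 FPKM, Ndufb8, at 217 and 249 FPKM, and Ndufb2, at 63.7 and 66.0 FPKM. Each of these rows joins the named gene with at least 1 other identifier, so that its value may not be that of the named gene alone.

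Higher levels within the set went in part with shorter annotated coding transcripts. Across the 76 members Spearman's rho between the median length of coding transcripts and mean FPKM was -0.37, a description across genes that share the same libraries. It pools the subunits with the assembly factors, which had lower levels, and no rho was computed for the subunits alone. The length is a median over all annotated coding transcripts of a gene, not that of the transcript expressed here. It was 651 nt for Ndufs1, the largest subunit of complex I, and 533 nt for Uqcrc1, a large subunit of complex III. By this measure the members had a median of 720 nt, and FPKM of short transcripts depend on how the fragment length is modelled. In 15 members the locus of the row reached over 1 kb beyond the annotated gene, furthest in Cox6c. Reads of neighbouring genes may be harder to assign there. Among the 15 were Ndufc1 and Ndufb6, with the highest ratios of complex I, and Ndufa2 and Ndufa13, its only subunits below equality. Uqcrc2, with the highest ratio of complex III, was another. For 5 members, Uqcrh, Atp5l, Atp5k, Atp5c1 and Ndufab1, the annotation holds a pseudogene of the same name, so that their values are less certain. Uqcrh and Atp5l are 2 of the subunits closest to equality, while Atp5k, Atp5c1 and Ndufab1 had log2 ratios of 0.26, 0.18 and 0.12. Pseudogenes under other names were not searched, so that further members may have them.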

How the data were processed

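Per the labels, libraries were made from 2 ug of total RNA, 3 with hCALR and 3 with hCALR-del52. The submitters' processing notes name TopHat2 2.0.9, Bowtie2 2.1.0 and Cuffdiff 2.1.1. Per the file headers, the build was mm10, gene models were from Ensembl, and lowly expressed or highly variable genes had been removed. The authors' deposited table gives 1 FPKM per group, the log2 fold change, p-value and q-value, a test statistic and a rank, the last of these being scores not used for any call. No replicate value or depth could be used.

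The log2 ratio was computed here with a pseudocount of 1 and understates the change of low genes. A gene is called at the authors' q under 0.05. Starts in the table count from 0, and 1 was added: 44 of 76 members then had the start of the GENCODE M21 gene and 0 before. Gene types, transcript lengths and pseudogenes come from that annotation, which is on the same build. Python 3.11.15, pandas 2.3.3, numpy 2.4.6, scipy 1.17.1 and matplotlib 3.10.9 were used, and the adjustment and ratio steps were tested on simulated data.

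The members and lists were chosen with earlier results of these data known. Genes named were, in each complex, the 3 with the highest level and the 3 with the highest and lowest ratios, with all core subunits, isoform pairs and assembly factors. In the other lists a pair of genes from each end of the order of ratios was named. Further members and list genes were named after their values were seen, and 1 complex I member is counted but not reported singly here. Core means subunits with catalysis, redox centres, the proton-carrying ring or stalks. Alternatives were other thresholds and adjustments, pseudocounts of 0.1 and 10, other scalings and other row filters.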

Additional observations from a re-analysis of the deposited data

How the results depend on the processing

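No member was called under any of 8 alternatives, among them q under 0.01, Benjamini-Hochberg adjustment over all rows and the inclusion of rows left out. Only the inclusion of rows left out could have changed the count, since the others were stricter rules or took fewer of the same members. Bonferroni adjustment could call no row of the table at all. The median log2 ratio of the members ran from 0.15 to 0.18 over 12 alternatives, of which leaving out long loci or members with a named pseudogene was chosen after seeing the data. For the complexes, counted here with their assembly factors, the medians ran over 10 alternatives from 0.12 to 0.15 for complex I, 0.10 to 0.16 for complex II, 0.17 to 0.20 for complex III, 0.19 to 0.21 for complex IV and 0.17 to 0.19 for complex V. With either other scaling 68 members were above equality in place of 67, the added one being Ndufa13. The background of genes in like FPKM ranges was also chosen after seeing the data. When the sum covered rows with 1 identifier and a symbol, the members held 2.54% of summed FPKM in hCALR and 2.83% in hCALR-del52 cells. Of all 76 members, none but Ndufa13 changed sign with another pseudocount or scaling, and no log2 ratio moved by 0.1 or more. No paired analysis was possible because replicates have no columns of their own, and leaving out single replicates and a look at depth were not run for want of such columns.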

Other observations

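Genes of mitochondrial import and shape were measured as well. Of 15 import genes, 11 were above 0, with a median log2 ratio of 0.06. Timm22, a channel of the inner membrane, was at 41.1 and 47.0 FPKM and Timm50 at 51.0 and 56.8 FPKM, while Timm23 was at 83.8 and 80.9 FPKM and Timm13 at 63.0 and 62.7 FPKM. Of 7 genes of fusion and fission, 2 were above 0, with a median of -0.02. Oma1, a protease that cuts the fusion protein Opa1, was at 10.5 and 7.89 FPKM and Fis1 at 94.5 and 77.9 FPKM, while the fusion genes Mfn1 and Opa1 had log2 ratios of 0.12 and 0.08. None of these genes was called.

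The order of the members by p differed from their order by test statistic in the authors' deposited table. Cox7b had the highest absolute test statistic of the members, 1.56, but in the authors' deposited table p = 0.575, which ranks 35 of 76. Cox7a2 had a statistic of 1.14 and the smallest p. The sources used here do not give how p was derived from the statistic.

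Ndufa13 stands on 3 rows with the same identifier and locus. Besides the row used, at 47.9 FPKM in both groups, they were at 2.16 and 1.85 FPKM and at 1.59 and 1.72 FPKM, so that their ratios pointed to either side of equality.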
